A study of Mus musculus with 28 samples.

Results

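The genes described here are Spib, Sox8, Gp2, Tnfaip2, Aif1, Marcksl1 and Tnfrsf11b, 7 of the 55011 gene symbols counted, taken by name as genes of the microfold cell. All 7 were found and all 7 passed the filter on low counts in each of the 11 comparisons. They were read in 28 libraries of mTECs from mouse thymus. The mTECs are epithelial cells of the thymic medulla that express genes of other organs and display the products to developing T cells. Each library was made from 1000 sorted cells of the C57BL/6 strain after magnetic depletion of cells with the blood-cell marker CD45.

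Wild-type mice gave 2 gates, entero-hepato mTECs (n = 3) and non-entero-hepato mTECs (n = 3). All other mice carried 1 copy of Foxn1cre, a Cre recombinase expressed from the promoter of a transcription factor of thymic epithelium, so the floxed Hnf4a allele is removed in that tissue, whereas the Hnf4g mutation is not tied to the Cre. Hnf4a and Hnf4g encode paralogous nuclear receptors that drive gut and liver genes. Cells named post-Aire mTEClo in the labels came from 4 genotypes. The control group had 4 libraries and was heterozygous at both genes, Hnf4a fl/+ with Hnf4g +/-. In the Hnf4a-removed group, with 3 libraries, Hnf4a was fl/fl beside Hnf4g +/-, and in the Hnf4g-removed group, also with 3, Hnf4g was -/- beside Hnf4a fl/+. The double-mutant group, with 4 libraries, was Hnf4a fl/fl and Hnf4g -/-. The subset mTEChi came from the control (n = 4) and double-mutant (n = 4) genotypes only. The controls therefore had 1 intact allele of each gene, and no library of mTEClo or mTEChi was wild type. The labels give no ages, and they number the thymi without tying each library to an animal of its own. A p-value here thus reflects only how far these libraries scatter, which may be technical.

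Microfold cells, or M cells, are epithelial cells over the lymphoid follicles of the gut that carry particles and bacteria from the lumen to the immune cells below. They form when the cytokine RANKL acts on its receptor RANK on epithelial cells and, through NF-kB, switches on the transcription factors SPIB and SOX8, which are needed for mature M cells. Some mTECs take on the gene program of M cells and are called microfold mimetic cells. Of the genes described here, Spib and Sox8 encode those 2 factors and Gp2 encodes a surface receptor for bacteria with type I fimbriae. Tnfaip2 encodes a protein related to exocyst subunits that promotes membrane protrusions, Aif1 an actin-bundling calcium-binding protein also known as a macrophage marker, and Marcksl1 a membrane protein that binds actin. Tnfrsf11b encodes osteoprotegerin, a soluble decoy receptor that captures RANKL.

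Apart from 2 pairs, the genes lie on different chromosomes (GRCm38, the build mm10, with GENCODE M21 gene models). Spib (chr7:44525993-44532071) and Gp2 (chr7:119442537-119459285) are on chromosome 7, and Sox8 (chr17:25565892-25570686) and Aif1 (chr17:35170991-35176068) on chromosome 17, all on the minus strand. Marcksl1 (chr4:129513581-129515985) and Tnfaip2 (chr12:111442469-111455018) are on the plus strand and Tnfrsf11b (chr15:54250619-54278484) on the minus strand. All are protein-coding. Reads carry no strand, and 314 exon bases of Tnfaip2 also belong to the antisense gene Gm40578, whose own reads came to at most 2.27% of those of Tnfaip2 in any library. Sox8 shares 329 exon bases with an antisense model. The deposited counts hold no gene of that name, so its reads could not be set beside those of Sox8. Sox8 counts are uncertain to that extent. The pseudogene Marcksl1-ps4 had 0 reads in all libraries.

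RefSeq promoters (GRCm38.p6), from 250 bases before to 50 bases after the start, were read for the 6 genes listed in that reference. The promoters of 4 genes are shown because the genes differ in how they moved between the sorted groups while 3 of them hold the letters GAGGAA, a core recognised by SPIB and other Ets factors of its kind, on either strand. Capitals mark that core (TTCCTC on the reverse strand).
Gp2 (chr7:119459223-119459522, minus strand): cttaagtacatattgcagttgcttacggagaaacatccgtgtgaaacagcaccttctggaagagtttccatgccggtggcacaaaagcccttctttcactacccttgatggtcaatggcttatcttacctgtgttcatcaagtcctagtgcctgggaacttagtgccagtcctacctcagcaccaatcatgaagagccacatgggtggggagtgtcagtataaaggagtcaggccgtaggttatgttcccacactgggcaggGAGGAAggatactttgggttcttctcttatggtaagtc
Aif1 (chr17:35176003-35176302, minus strand): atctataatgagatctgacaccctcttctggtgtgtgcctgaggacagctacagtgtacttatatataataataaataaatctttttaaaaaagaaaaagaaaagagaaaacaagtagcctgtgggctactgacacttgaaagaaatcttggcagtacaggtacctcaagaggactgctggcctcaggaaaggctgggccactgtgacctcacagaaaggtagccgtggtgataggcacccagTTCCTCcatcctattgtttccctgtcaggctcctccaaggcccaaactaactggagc
Marcksl1 (chr4:129513331-129513630, plus strand): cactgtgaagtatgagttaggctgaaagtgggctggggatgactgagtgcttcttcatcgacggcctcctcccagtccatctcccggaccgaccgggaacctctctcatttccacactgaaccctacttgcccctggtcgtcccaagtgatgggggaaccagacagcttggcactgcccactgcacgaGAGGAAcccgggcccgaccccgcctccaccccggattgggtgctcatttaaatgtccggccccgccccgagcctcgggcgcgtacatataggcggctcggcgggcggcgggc
Tnfaip2 (chr12:111442411-111442710, plus strand): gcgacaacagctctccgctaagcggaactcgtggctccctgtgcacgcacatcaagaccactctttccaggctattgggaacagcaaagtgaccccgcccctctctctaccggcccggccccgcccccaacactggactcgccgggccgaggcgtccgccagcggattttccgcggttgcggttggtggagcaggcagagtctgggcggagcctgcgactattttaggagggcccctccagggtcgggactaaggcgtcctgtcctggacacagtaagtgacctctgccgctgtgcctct
In Gp2 the core begins at base 13 of the transcript, in Marcksl1 62 bases before the start, and in Aif1 its reverse complement begins 7 bases before the start. The core was in 3 of 6 promoters of these genes and in 28.1% of 32544 promoters of the same length. A further 3 motifs, searched on both strands, were in 0 of the 6. They were ACAAAG for Sox factors (in 18.7% of all promoters), AAAGTCC for HNF4 (4.23%) and an NF-kB motif of 3 G, any 2 letters, 2 T, any letter and 2 C in that order (4.78%). A match of letters is a description and not a binding site, and the absence of a motif says only that these letters are not in this window.

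Per library, total counts ranged from 5935616 to 6897484 for the entero-hepato gate, 4330120 to 4647944 in the non-entero-hepato gate, 5504278 to 7599304 in mTEClo and 5344084 to 8342583 in mTEChi, and 27045 to 31055 genes had a read. Levels are given as CPM, read counts made comparable between libraries by dividing by the TMM-adjusted total, with 1 scaling over all 28 libraries. The 10 listed mTEC genes, among them Epcam, Krt5 and Foxn1, had reads in each group, with summed levels of 7237 to 16690 CPM, and Aire was at 206 to 554 CPM in control mTEClo and 1323 to 2203 CPM in control mTEChi. Whole-gene counts of the targeted genes did not check the genotype labels, because reads from outside a deleted part are counted and the deleted parts are not named in the labels. Hnf4a was at 2.27 to 6.92 CPM in control and 2.25 to 4.29 CPM in double-mutant mTEClo, ranges that overlapped, and Hnf4g was at 9.09 to 15.7 CPM in control and 3.23 to 8.44 CPM in double-mutant mTEClo. Tests are edgeR quasi-likelihood tests with Benjamini-Hochberg adjustment over all genes of a comparison, and a gene was called at an adjusted p under 0.05. Log2 fold changes are given with their standard errors (SE). In these bulk samples fewer cells of a type and less RNA per cell cannot be told apart.

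**Figure D1:**
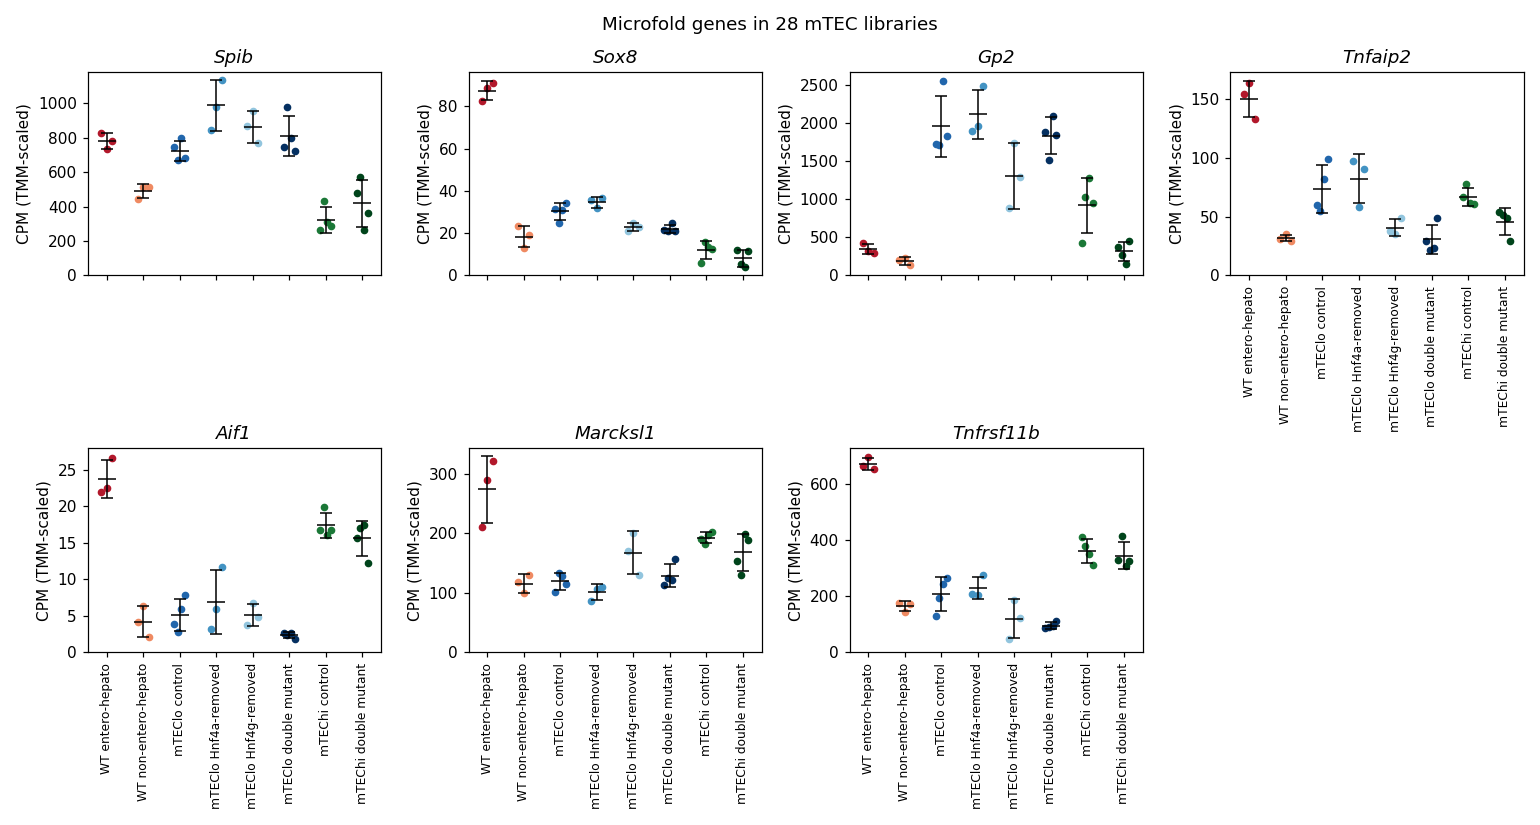
Levels of the 7 genes in each library (points; y axis in TMM-scaled CPM from 0, a scale of its own per gene) for the 8 groups on the x axis, with bars for the mean and SD. The entero-hepato gate was the highest group for 5 of the genes, while Gp2 was highest in Hnf4a-removed mTEClo at 2110 CPM and Spib in the same group at 988 CPM.

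Each of the 7 genes was higher in entero-hepato than in non-entero-hepato mTECs of wild-type mice. This comparison asks how the microfold genes lie between cells inside and outside the gate linked to gut and liver genes. The share of all 16811 tested genes that were higher was 22.7%, and the median log2 fold change of all genes was -0.047, against 2.03 for these 7. The libraries of the gate lay above all those outside it for each of the 7, and for 27.9% of all tested genes.

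Among the transcription factors, Sox8 was at 82.5, 88.6 and 91.2 CPM in the entero-hepato libraries and at 23.2, 13.0 and 18.9 CPM in the others. Every entero-hepato library was thus far above every library outside the gate, a log2 fold change of 2.24 (SE 0.19, edgeR adjusted p = 3.05e-05). Spib was at 826, 734 and 782 CPM in the gate against 443, 514 and 516 CPM outside it. All 3 libraries of the gate were above all 3 outside it, and the difference was 1.57-fold (log2 fold change 0.66, SE 0.10, edgeR adjusted p = 0.000685).

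The bacterial receptor gene Gp2 was at 420, 315 and 300 CPM in the entero-hepato gate and at 199, 231 and 134 CPM outside it. The lowest library of the gate was above the highest outside it, with a log2 fold change of 0.86 (SE 0.21, edgeR adjusted p = 0.00982). Tnfrsf11b, the osteoprotegerin gene, was at 662, 693 and 654 CPM against 175, 142 and 172 CPM. The spread within each gate was small beside the gap, and the log2 fold change was 2.03 (SE 0.10, edgeR adjusted p = 2.06e-06).

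Of the genes for cell shape and membrane, Tnfaip2 was at 154, 163 and 133 CPM in the gate and at 31.3, 35.1 and 29.6 CPM outside it, a log2 fold change of 2.22 (SE 0.13, edgeR adjusted p = 4.3e-06). Marcksl1 was at 211, 289 and 321 CPM against 117, 98.9 and 130 CPM, a log2 fold change of 1.24 (SE 0.16, edgeR adjusted p = 0.000381). Marcksl1 varied more among the entero-hepato libraries than Tnfrsf11b did, and its lowest library there still lay above all 3 others. Aif1 was the least abundant of the 7, at 21.9, 22.4 and 26.7 CPM in the gate and at 4.15, 6.30 and 2.01 CPM outside it (log2 fold change 2.49, SE 0.38, edgeR adjusted p = 0.000865).

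Aif1 is also a macrophage gene, and macrophage markers moved in the same direction. Of 9 macrophage markers tested, 5 were higher and 0 lower in the gate, and the summed level of the 10 listed markers was 759 to 1142 CPM in the gate and 311 to 446 CPM outside it. Most of that sum was Lyz2, a lysozyme gene, at 673 against 233 CPM. The other 4 that were higher were Cd14 (127 against 26.3 CPM), Csf1r (66.4 against 28.5 CPM), Cd68 (39.2 against 13.6 CPM) and Mertk (8.17 against 0.698 CPM). The macrophage genes Adgre1 (13.8 against 29.9 CPM) and C1qa (16.6 against 12.3 CPM) were not called, and Fcgr1 was under 1 CPM in each of these libraries. Red-cell genes also stood apart, with a summed level of 167 to 248 CPM in the gate and 16.7 to 26.2 CPM outside it. The part of macrophage or red-cell RNA in the Aif1 result was not tested.

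**Figure D2:**
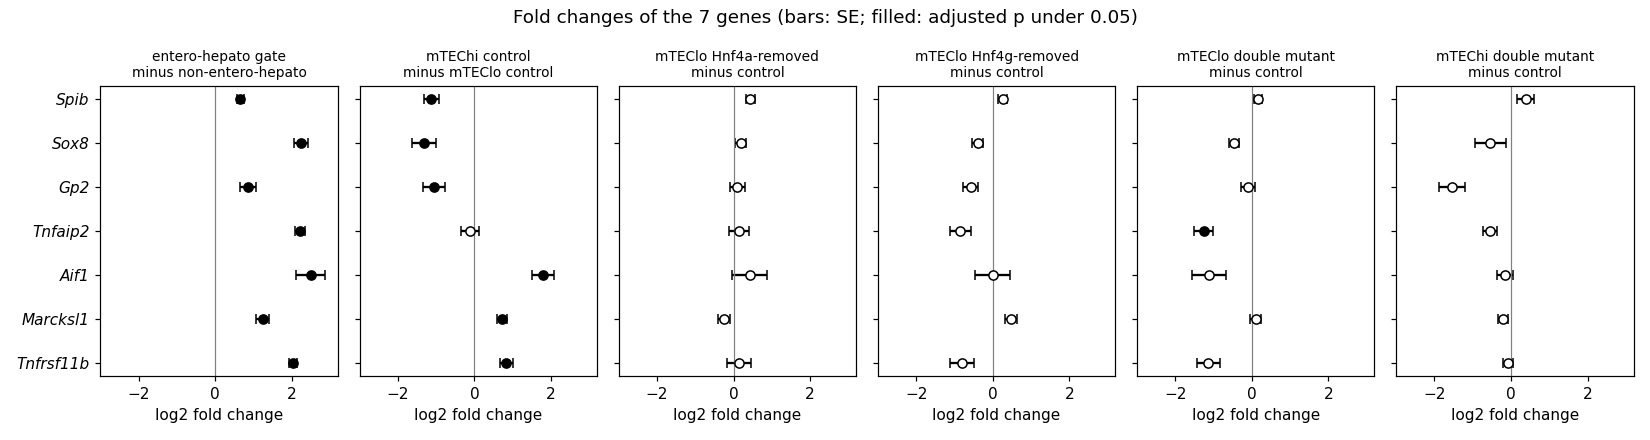
Log2 fold changes of the 7 genes (x axis) in 6 comparisons, 1 per panel, with SE bars; filled points had an edgeR adjusted p under 0.05. All 7 points are filled and to the right of 0 for the wild-type gates, 6 are filled for control mTEChi against control mTEClo, and 1, Tnfaip2, is filled among the 4 panels on removal of Hnf4 genes.

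Other genes known from M cells were compared in the same way. Of 19 listed, 16 rose and 0 fell inside the entero-hepato gate, with a median log2 fold change of 1.73. Pglyrp1, a peptidoglycan recognition protein, was at 1048 against 79.3 CPM, the chemokine gene Ccl9 at 589 against 26.9 CPM, and the connexin gene Gjb2 at 1476 against 137 CPM. Of 19 tested genes of the RANK and NF-kB pathway, 11 were higher and 1 lower. Tnfrsf11a, which encodes RANK, was at 188 ± 18.0 CPM (SD, n = 3) in the gate against 119 ± 6.37 CPM (n = 3), a log2 fold change of 0.65 (SE 0.10, edgeR adjusted p = 0.000938). The ligand gene Tnfsf11 had at most 3 reads in any of these 6 libraries and was not tested.

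Among 11 tested factors that act beside SPIB and SOX8 in epithelia, 3 had higher and 4 had lower levels in the gate. Esrrg, a nuclear receptor of maturing M cells, was at 96.3 against 31.2 CPM, and the Ets factors Elf3 (741 against 237 CPM) and Ets2 (253 against 134 CPM) were higher too. Sox9, another Sox factor, was lower at 60.4 against 211 CPM, as were Sox4 (31.0 against 65.6 CPM) and Atoh8, a repressor of M-cell formation (2.88 against 16.8 CPM). The fourth was Ehf, an Ets factor of surface epithelia. Of 7 tested relatives and partners of the 7 genes, 2 were higher and 1 lower. The Tnfaip2 relative Exoc3l4 was higher at 266 against 128 CPM, and so was the cytokine gene Tnfsf10 (80.5 against 48.6 CPM), whose product osteoprotegerin also binds. The Aif1 relative Aif1l was lower, at 79.7 against 122 CPM.

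The 7 genes split by direction between the sorted subsets mTEChi and mTEClo. In control mice Spib, Sox8 and Gp2 were lower in mTEChi and Aif1, Marcksl1 and Tnfrsf11b were higher, while Tnfaip2 was not called. Over all 20095 genes tested, 20.5% were lower and 22.4% higher, so calls were common in this comparison. The mTEChi libraries were entered in the deposit apart from the mTEClo libraries. In every comparison between the subsets, subset and any difference in preparation therefore cannot be told apart. Aire, the gene of the mTEChi stage, was at 1674 against 403 CPM.

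Spib was at 262, 430, 313 and 288 CPM in control mTEChi and at 746, 673, 797 and 680 CPM in control mTEClo. The groups did not overlap, and the log2 fold change was -1.13 (SE 0.19, edgeR adjusted p = 0.000153). Gp2 was at 425, 1024, 1279 and 951 CPM in mTEChi against 1725, 1715, 2546 and 1821 CPM in mTEClo, with mTEChi replicate 1 far below the other 3 (log2 fold change -1.06, SE 0.29, edgeR adjusted p = 0.00722). Sox8 averaged 11.9 ± 4.30 CPM (SD, n = 4) in mTEChi against 30.4 ± 3.94 CPM (n = 4), a log2 fold change of -1.32 (SE 0.31, edgeR adjusted p = 0.00253).

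In the other direction, Tnfrsf11b was at 410, 377, 349 and 310 CPM in control mTEChi and at 130, 193, 241 and 266 CPM in control mTEClo, so that the lowest mTEChi library was above the highest mTEClo library (log2 fold change 0.83, SE 0.17, edgeR adjusted p = 0.000848). Marcksl1 averaged 192 ± 8.82 against 119 ± 14.3 CPM (SD, n = 4 each; log2 fold change 0.72, SE 0.13, edgeR adjusted p = 0.00028). Aif1 was at 16.8, 19.9, 16.04 and 16.7 CPM in mTEChi and at 3.88, 2.78, 5.93 and 7.78 CPM in mTEClo, again with no overlap (log2 fold change 1.79, SE 0.29, edgeR adjusted p = 7.72e-05). Tnfaip2 was at 66.8 ± 7.64 and 73.7 ± 20.4 CPM, a log2 fold change of -0.11 (SE 0.24, edgeR adjusted p = 0.734).

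Markers of other cells differed between these subsets as well. The summed macrophage markers were at 1311 to 1734 CPM in control mTEChi and 404 to 661 CPM in control mTEClo, with 6 of 9 tested markers higher and 0 lower. Their part in the Aif1 difference was not tested. Of the B-cell markers, 5 of 6 were higher in mTEChi, yet their sums were 99.6 to 107 and 92.6 to 111 CPM, and Spib, which B cells also express, was lower there. Of the dendritic and plasmacytoid markers 6 of 8, of the fibroblast markers 3 of 6 and of the thymocyte markers 7 of 9 were higher in mTEChi.

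The subset difference had the same direction in double-mutant cells for the 6 genes that were called, where 27.7% of all genes were higher and 23.1% lower. Gp2 was at 378, 273, 155 and 454 CPM in double-mutant mTEChi and at 1883, 1507, 2094 and 1845 CPM in double-mutant mTEClo. All mTEChi libraries were far below all mTEClo libraries, a log2 fold change of -2.51 (SE 0.30, edgeR adjusted p = 2.55e-06). Tnfrsf11b was higher in mTEChi by 1.89 on the log2 scale (SE 0.18, edgeR adjusted p = 1.15e-07) and Aif1 by 2.75 (SE 0.30, edgeR adjusted p = 8.33e-07). Spib was lower at a log2 fold change of -0.92 (SE 0.19) and Sox8 at -1.41 (SE 0.32). Marcksl1 was higher by 0.41 (SE 0.13, edgeR adjusted p = 0.0137) with overlapping groups, and the call was lost without double-mutant mTEChi replicate 3 (adjusted p = 0.0559) or mTEClo replicate 1 (0.0526). Tnfaip2 had a log2 fold change of 0.59 (SE 0.25, edgeR adjusted p = 0.0543), and it was called by DESeq2 (0.028) and without double-mutant mTEClo replicate 4 (0.00486) or mTEChi replicate 4 (0.0157). It was also called by edgeR with RLE normalization (adjusted p = 0.0426) and without the filter on low counts (0.0256).

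Among the listed RANK and NF-kB genes, 14 of 20 were higher and 3 lower in control mTEChi than in control mTEClo. Cd40, which encodes a TNF-family receptor of mTECs, was at 309 against 72.6 CPM, and Nfkbia, an NF-kB inhibitor gene, at 1992 against 985 CPM. The feedback inhibitor Tnfaip3 was lower at 61.0 against 160 CPM. The Spib relatives Elf3 (190 against 704 CPM) and Ehf (128 against 518 CPM) and the Sox8 relative Sox9 (93.9 against 442 CPM) were lower in mTEChi. Of the other M-cell markers 9 of 19 were higher and 3 lower.

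In mTEClo that lacked both Hnf4 genes, Tnfaip2 was lower than in the control and no other gene of the 7 was called. This comparison asks whether microfold genes depend on HNF4A and HNF4G in post-Aire cells. The share of the 18775 tested genes that were called was 0.74% in either direction and 0.581% as lower. Tnfaip2 was at 29.7, 22.1, 23.3 and 48.6 CPM in double-mutant mTEClo and at 60.0, 54.4, 81.7 and 98.7 CPM in control mTEClo. The groups did not overlap, though double-mutant replicate 4 came near control replicate 2, and the log2 fold change was -1.26 (SE 0.26, edgeR adjusted p = 0.0316). The call was lost without double-mutant replicate 1, 2 or 3 or control replicate 3 or 4, at adjusted p-values of 0.0966, 0.099, 0.106, 0.0943 and 0.118, with log2 fold changes of -1.08 to -1.24.

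Tnfrsf11b had a log2 fold change of similar size that was not called with all libraries. It was at 86.0, 87.5, 94.5 and 110 CPM in double-mutant mTEClo and at 130, 193, 241 and 266 CPM in the control. The double-mutant libraries lay close together and all below the control, whose own values spread about their mean with an SD of 59.9 CPM (log2 fold change -1.14, SE 0.30, edgeR adjusted p = 0.102). It was called without control replicate 1 (adjusted p = 0.0478) and in a fit of these 2 groups alone (0.0102). It was also called without the filter on low counts and without the 3 mTEClo libraries numbered 1 of the control and single mutants, the last an alternative chosen after seeing the data. Those 2 settings called 967 and 543 genes in all, against 139 in the main fit.

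Aif1 was at 2.58, 2.35, 2.65 and 1.78 CPM in double-mutant mTEClo and at 3.88, 2.78, 5.93 and 7.78 CPM in the control, values that did not overlap and rested on 12 to 54 reads a library (log2 fold change -1.12, SE 0.44, edgeR adjusted p = 0.29). The summed macrophage markers overlapped in this comparison, at 227 to 525 CPM in the double mutant against 404 to 661 CPM. Most of that sum was Lyz2, at 296 against 416 CPM. Of 7 macrophage markers tested, 2 had a positive log2 fold change, and the median was -0.50. Csf1r averaged 6.60 against 13.6 CPM and C1qb 2.34 against 6.72 CPM, while Adgre1 went the other way at 12.4 against 4.67 CPM. The part of macrophage RNA in the Aif1 difference was not tested. Sox8 averaged 22.1 ± 1.87 against 30.4 ± 3.94 CPM (SD, n = 4 each; log2 fold change -0.46, SE 0.13, edgeR adjusted p = 0.151).

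Spib, Gp2 and Marcksl1 had small differences. Spib was at 743, 978, 798 and 721 CPM in double-mutant and 746, 673, 797 and 680 CPM in control mTEClo, which overlapped (log2 fold change 0.16, SE 0.11, edgeR adjusted p = 0.622). Gp2 was at 1883, 1507, 2094 and 1845 CPM against 1725, 1715, 2546 and 1821 CPM (log2 fold change -0.094, SE 0.18, edgeR adjusted p = 0.897). Marcksl1 averaged 128 ± 19.6 against 119 ± 14.3 CPM (log2 fold change 0.10, SE 0.14, edgeR adjusted p = 0.854). None of these differences passed the test, which does not show that the levels were equal.

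Other M-cell markers were compared in the same way. Of 19, 8 were lower and 0 higher in double-mutant mTEClo, with a median log2 fold change of -0.73, against -0.46 for the 7 genes and -0.0015 for all genes. Ccl6, which encodes a chemokine, averaged 7.14 ± 2.40 against 84.5 ± 30.9 CPM (SD, n = 4 each; log2 fold change -3.56, SE 0.43, edgeR adjusted p = 0.00147). Ccl9 was at 44.4 against 150 CPM (adjusted p = 0.00149) and Serpinb6a, an intracellular protease inhibitor, at 322 against 709 CPM (adjusted p = 0.00274). Of 20 RANK and NF-kB genes 0 were called by edgeR and 6 had an unadjusted p under 0.05, and of 13 Ets, Sox and other factors 0 were called and 3 had such a p. Of the markers of macrophages, B cells, dendritic cells, thymocytes, fibroblasts and endothelium, 3 to 7 tested in each list, 0 were called by edgeR and 0 to 2 a list had an unadjusted p under 0.05. Of 10 mTEC identity genes, 6 cortical epithelial genes and 1 red-cell gene tested, 0 were called by edgeR, while 6, 3 and 1 had such a p and the medians of the log2 fold changes were -0.39, -0.80 and -0.87. Among these, Aire averaged 192 against 403 CPM with overlapping groups (log2 fold change -1.07, SE 0.38, edgeR adjusted p = 0.242). The MHC class II gene H2-Aa averaged 1016 against 1963 CPM without overlap (log2 fold change -0.95, SE 0.30, edgeR adjusted p = 0.177). Their part in the Tnfaip2 result was not tested.

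**Figure D3:**
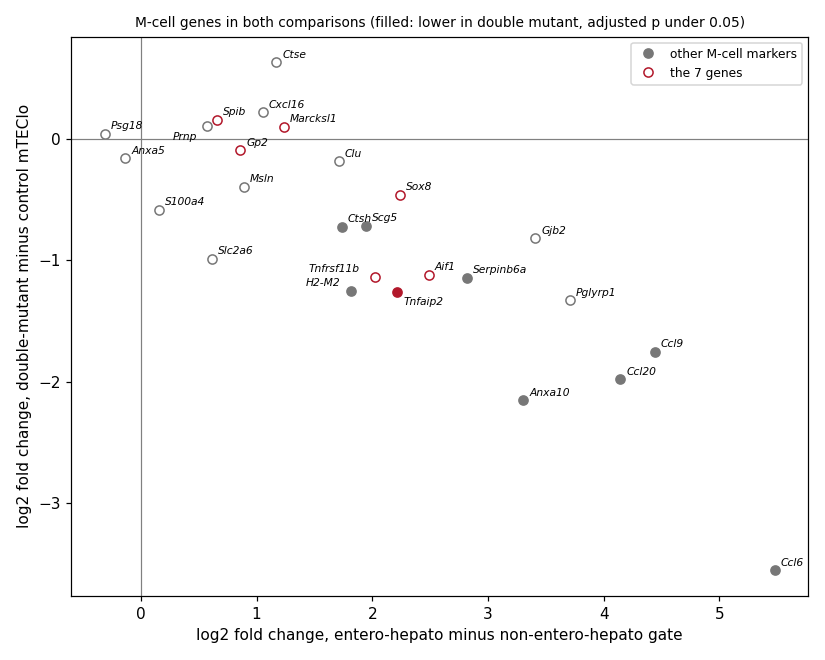
Log2 fold change in the entero-hepato gate against the non-entero-hepato gate (x axis) and in double-mutant against control mTEClo (y axis) for the 7 genes (red) and 19 other M-cell markers (grey); filled points were lower in the double mutant at an edgeR adjusted p under 0.05. Tnfaip2 is the filled red point at 2.22 and -1.26, and Ccl6 lies at the lower right at 5.48 and -3.56.

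The single mutants were compared with the same control libraries. In Hnf4a-removed mTEClo no gene of the 7 was called by edgeR or DESeq2, and 0.00533% of all genes were called by edgeR. At an unadjusted p under 0.05 there were 1130 genes, 1 of them among the 7. That gene was Spib, at 846, 980.4 and 1138 CPM, above all 4 control libraries (log2 fold change 0.44, SE 0.12, edgeR adjusted p = 0.706). Tnfaip2, at 97.2, 58.3 and 90.9 CPM, lay within the control range (log2 fold change 0.15, SE 0.27). Tnfrsf11b was at 206, 205 and 275 CPM, which overlapped the control libraries although the third lay above them all (log2 fold change 0.13, SE 0.31). Of the 19 other M-cell markers, 0 were called by edgeR and 1 had an unadjusted p under 0.05.

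In Hnf4g-removed mTEClo again no gene of the 7 was called by edgeR or DESeq2, against 0.0959% of all genes by edgeR, while 6 of the 7 and 1538 genes in all had an unadjusted p under 0.05. Tnfaip2 was at 38.2, 35.1 and 48.9 CPM, below all 4 control libraries (log2 fold change -0.85, SE 0.28, edgeR adjusted p = 0.369). Tnfrsf11b was at 47.2, 186 and 122 CPM, with replicate 1 far below the others (log2 fold change -0.80, SE 0.32, edgeR adjusted p = 0.525). Gp2 was at 884, 1740 and 1290 CPM and was likewise lowest in replicate 1 (log2 fold change -0.58, SE 0.19, edgeR adjusted p = 0.39). Marcksl1 was at 171, 201 and 129 CPM (log2 fold change 0.49, SE 0.15, edgeR adjusted p = 0.338). Of the other M-cell markers 3 of 19 were lower, namely Ccl9 (44.4 against 150 CPM), Serpinb6a (333 against 709 CPM) and Ccl6 (10.1 against 84.5 CPM).

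The mutants were also compared with each other. Double-mutant mTEClo had lower Tnfaip2 than Hnf4a-removed mTEClo (30.9 ± 12.2, n = 4, against 82.1 ± 20.9 CPM, n = 3, SD; log2 fold change -1.40, SE 0.27, edgeR adjusted p = 0.0405), where 0.293% of all genes were called and 0.261% were lower. Of the 7 fits that each left out 1 library, 5 lost that call (adjusted p from 0.0994 to 0.225), namely those without double-mutant replicate 1, 2 or 3 or Hnf4a-removed replicate 1 or 3. Tnfaip2 was not called in the fit of these 2 groups alone (adjusted p = 0.0564) or without those 3 libraries numbered 1 (0.0677). In this comparison Tnfrsf11b had a log2 fold change of -1.27 (SE 0.31, edgeR adjusted p = 0.115) and Sox8 of -0.64 (SE 0.14, edgeR adjusted p = 0.0795), both without overlap, and Sox8 was called by DESeq2 (adjusted p = 0.0135). Also without overlap were Aif1 (-1.54, SE 0.46, edgeR adjusted p = 0.212) and, the other way, Marcksl1 (0.36, SE 0.16, edgeR adjusted p = 0.408). The groups did not overlap for 5 of the 7, against 10.9% of all tested genes. At an unadjusted p under 0.05 were 6 of the 7 and 2057 genes in all. Tnfrsf11b was called with the replicate block (adjusted p = 0.039), in the fit of these 2 groups (0.00339), without those 3 libraries numbered 1 (0.00261) and without the filter (2.23e-19). These fits called 104, 61, 216 and 733 genes in all, in that order, against 55 in the main fit. Of the 19 other M-cell markers 7 were lower in the double mutant than in Hnf4a-removed mTEClo. Against Hnf4g-removed mTEClo the double mutant had no called gene of the 7 by edgeR or DESeq2, against 0.0107% of all genes by edgeR. At an unadjusted p under 0.05 were 3 of the 7 and 1939 genes in all. The 3 were Gp2 (log2 fold change 0.48, SE 0.19), Marcksl1 (-0.38, SE 0.15) and Aif1 (-1.12, SE 0.47), the last without overlap. Tnfaip2 was not among them, at -0.41 (SE 0.28).

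Between the single mutants the groups did not overlap for 5 of the 7 genes, against 11.5% of all tested genes, but none of the 7 was called by edgeR, against 0.0639% of all genes, and 5 of the 7 and 1448 genes in all had an unadjusted p under 0.05. Tnfaip2 was at 97.2, 58.3 and 90.9 CPM in Hnf4a-removed and 38.2, 35.1 and 48.9 CPM in Hnf4g-removed mTEClo (log2 fold change 0.99, SE 0.29, edgeR adjusted p = 0.397). Marcksl1 lay the other way, at 85.3, 106 and 110 CPM against 171, 201 and 129 CPM (log2 fold change -0.74, SE 0.17, edgeR adjusted p = 0.162), and was called by DESeq2 (0.00811) and without Hnf4g-removed replicate 3 (0.0408). Sox8, Gp2 and Tnfrsf11b were the other 3 without overlap, each with the higher mean in the Hnf4a-removed libraries. Of the other M-cell markers, 3 of 19 (Serpinb6a, Ccl9 and Ccl6) were higher in Hnf4a-removed than in Hnf4g-removed mTEClo. The comparisons within mTEClo share groups of libraries with one another.

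In mTEChi that lacked both Hnf4 genes no gene of the 7 was called by edgeR, against 0.635% of all genes, and 2 of the 7 and 2055 genes in all had an unadjusted p under 0.05. Gp2 was at 378, 273, 155 and 454 CPM in double-mutant mTEChi and at 425, 1024, 1279 and 951 CPM in control mTEChi. The control libraries 2, 3 and 4 lay well above all mutant libraries, and control replicate 1 lay among the mutants (log2 fold change -1.54, SE 0.34, edgeR adjusted p = 0.0704). Gp2 was called without that library (log2 fold change -1.78, adjusted p = 0.0205) and by DESeq2 (0.029).

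Tnfaip2 was at 53.6, 51.7, 48.7 and 28.9 CPM in double-mutant mTEChi and at 66.8, 77.6, 61.8 and 61.0 CPM in control mTEChi, which did not overlap (log2 fold change -0.55, SE 0.19, edgeR adjusted p = 0.276). Tnfrsf11b was at 329, 414, 306 and 323 CPM against 410, 377, 349 and 310 CPM, overlapping ranges with a log2 fold change of -0.075 (SE 0.13, edgeR adjusted p = 0.88). Spib averaged 419 ± 135 against 323 ± 74.0 CPM, Sox8 8.19 ± 4.06 against 11.9 ± 4.30 CPM, Aif1 15.6 ± 2.37 against 17.4 ± 1.73 CPM and Marcksl1 168 ± 31.4 against 192 ± 8.82 CPM (SD, n = 4 each), all with overlap. Of the other M-cell markers, 4 of 19 were lower and 0 higher. Anxa10 (64.8 against 168 CPM), an annexin, Ccl6 (13.5 against 88.7 CPM) and H2-M2 (473 against 721 CPM), a non-classical MHC class I gene, had the smallest p-values of these.

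Whether removal of both Hnf4 genes acted differently in the 2 subsets was tested as an interaction, the double-mutant minus control difference in mTEChi minus that in mTEClo. No gene of the 7 was called by edgeR, against 0.0597% of all genes, and 3 of the 7 and 2298 genes in all had an unadjusted p under 0.05. Tnfrsf11b had an interaction of 1.05 on the log2 scale (SE 0.24, edgeR adjusted p = 0.0948), and was called by DESeq2 (0.00755) and without control mTEClo replicate 1 (1.22, adjusted p = 0.00938). Gp2 had an interaction of -1.46 (SE 0.41, edgeR adjusted p = 0.156) and Aif1 of 0.96 (SE 0.41, edgeR adjusted p = 0.372). Tnfaip2, at 0.71 (SE 0.35, edgeR adjusted p = 0.458), was not among the 3.

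**Figure D4:**
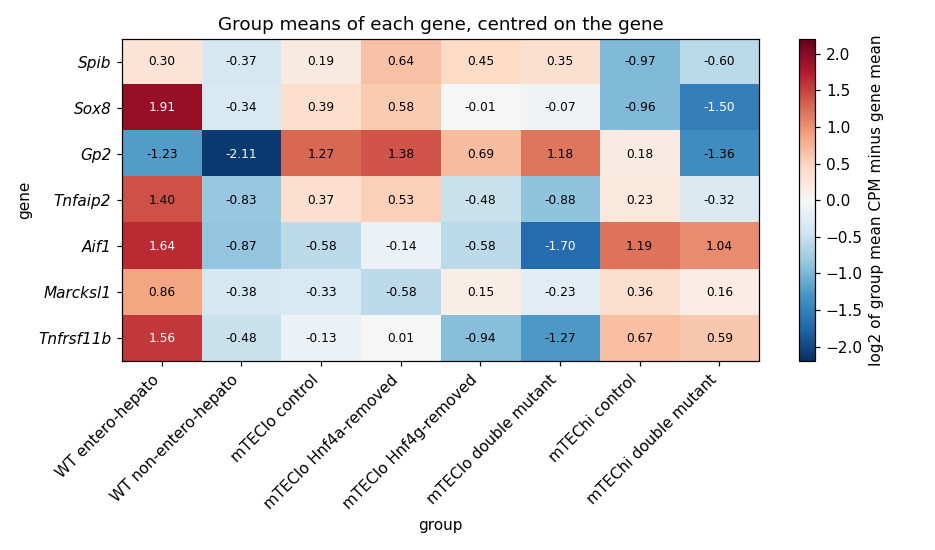
Group means of the 7 genes (rows) in the 8 groups (columns) as log2 of the mean CPM minus the gene's mean over the groups; red is above and blue below that mean. Gp2 is low in both wild-type gates and in double-mutant mTEChi, and Tnfaip2, Aif1 and Tnfrsf11b share high values in the entero-hepato gate and low values in double-mutant mTEClo.

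Across the 8 groups the genes spanned different ranges and orders. The mean of the highest group was 11.2 times that of the lowest for Gp2, 10.7 times for Sox8, 10.1 times for Aif1, 7.08 times for Tnfrsf11b, 4.86 times for Tnfaip2, 3.06 times for Spib and 2.72 times for Marcksl1. Spib ran from 988 ± 146 CPM in Hnf4a-removed mTEClo (SD, n = 3) through the Hnf4g-removed, double-mutant, entero-hepato and control mTEClo groups, each overlapping the one before. It was then lower in the non-entero-hepato gate (491 ± 41.7 CPM), which did not overlap the group above it, and lowest in the overlapping mTEChi groups.

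For Sox8 only the entero-hepato gate, at 87.4 ± 4.45 CPM, stood clear of the next group, Hnf4a-removed mTEClo at 34.7 ± 2.64 CPM, and each later neighbour in the order overlapped the one before. Gp2 was at 1305 to 2110 CPM in the means of the 4 mTEClo groups and 920 ± 359 CPM in control mTEChi, all overlapping their neighbours. The entero-hepato gate followed at 345 ± 65.4 CPM, below every control mTEChi library, and the non-entero-hepato gate was lowest at 188 ± 49.5 CPM. The wild-type gates and the Foxn1cre groups differ in genotype and sort, so these orders are descriptions without a test.

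Tnfaip2 was highest in the entero-hepato gate (150.2 ± 15.5 CPM), clear of the next group, and lowest in the non-entero-hepato gate and double-mutant mTEClo, whose means were 32.0 and 30.9 CPM. Aif1, Marcksl1 and Tnfrsf11b had the same 3 groups at the top, the entero-hepato gate, control mTEChi and double-mutant mTEChi. In each of these 3 genes the gate did not overlap control mTEChi, and the mTEChi groups overlapped each other. Aif1 was lowest in double-mutant mTEClo (2.34 ± 0.396 CPM), Tnfrsf11b too (94.5 ± 10.98 CPM), and Marcksl1 in Hnf4a-removed mTEClo (100.5 ± 13.2 CPM), each overlapping the group above.

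Per kilobase of exon, the levels of the 7 genes can be set against each other. Gp2 had the highest mean of them in all mTEClo and mTEChi groups, within 1 SD of Spib in double-mutant mTEChi, at 977 ± 200 CPM per kilobase in control mTEClo (SD, n = 4) against 252 ± 20.5 for Spib and 74.4 ± 8.90 for Marcksl1. In the entero-hepato gate Spib was highest at 272 ± 16.1 CPM per kilobase (n = 3), followed by Tnfrsf11b at 238 ± 7.33 and Gp2 at 173 ± 32.7. Sox8, Tnfaip2 and Aif1 were the lowest 3 in every group, at 28.04, 30.1 and 15.4 CPM per kilobase in the gate and 9.73, 14.8 and 3.32 in control mTEClo.

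Likeness of pattern was measured as the root mean square difference of the 8 group means of log2 CPM after centring each gene, over 16197 genes. Among the 7 genes themselves, Aif1 and Tnfrsf11b were closest (0.41 on the log2 scale), followed by Tnfaip2 and Tnfrsf11b (0.53), and Gp2 and Aif1 were farthest apart (2.01). Spib and Sox8 differed by 0.70. These are descriptions over 8 groups that share a normalization.

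The 3 genes most like Tnfrsf11b were H2-M2 (0.22), Nxnl2 (0.22) and Fabp4 (0.23), and those most like Tnfaip2 were Cd101 (0.22), Traf3ip3 (0.23) and Prom1 (0.26). For Sox8 they were Sgpp2 (0.26), Mgat3 (0.27) and Serpina10 (0.29), and for Aif1 Susd5 (0.14), Gp9 (0.20) and Sbpl (0.21). Spib was nearest Cln8 (0.12), Cnksr1 (0.13) and Elmo3 (0.13), and Marcksl1 nearest Sgpl1 (0.15), Lysmd3 (0.16) and Tchh (0.17). Gp2 had the most distant nearest genes, Mapk10 (0.46), Olfr12 (0.48) and Pcdh19 (0.50). H2-M2 is also among the listed M-cell markers, and a gene with a small range, such as Marcksl1 or Spib, is near many genes by this measure.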

How the data were processed

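Per the labels' protocols, polyadenylated RNA of 1000 sorted cells became cDNA that was amplified, cut with Tn5 and read as paired ends, with no strand and no molecular identifiers. The deposited table holds counts of reads per gene that the authors did not normalize. STAR 2.7.3a, featureCounts and mm10 are named in the submitters' processing notes; no annotation is named for the counting. Positions and lengths are from GENCODE M21, which matched 53009 of 55011 symbols. All 28 columns matched a title.

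Counts were tested with edgeR 4.0.16 (quasi-likelihood, TMM, filterByExpr with a minimum count of 10 and minimum total of 15) in R 4.3.3, with Benjamini-Hochberg adjustment over all genes of a comparison and a threshold of 0.05. The wild-type gates, the 4 mTEClo genotypes, the mTEChi genotypes and the control and double-mutant libraries of both subsets each had a fit of their own. Alternatives were DESeq2 1.42.0, RLE normalization, no filter, a replicate block, 2-group fits and leaving out each library. The edgeR script was checked on simulated data. No 2 replicates agreed within sampling noise (chi-square per degree of freedom 5.93 to 24.2 over 36 pairs). Each was counted separately, but this check cannot tell libraries of separate animals from repeated preparations of the same thymus.

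The genes and lists were chosen with earlier results of these data known. The plan was to name all 7 genes in each comparison, with the called genes of smallest p per list (up to 3 a direction). In several comparisons some of the 7, or called genes of a list, are not named. The 3 genes most alike in pattern are named for each of the 7, and other genes were chosen after their values were seen. By correlated deviations each library number matched its own best between Hnf4a-removed and Hnf4g-removed mTEClo (r = 0.36, 0.11 and 0.18 over 11495 genes). A replicate block there changed no call among the 7. The wild-type gates also matched for all 3 numbers, at r of 0.024, 0.075 and 0.023. Libraries numbered 1 also correlated between control and Hnf4g-removed (r = 0.36), control and Hnf4a-removed (0.15) and Hnf4g-removed and double-mutant mTEClo (0.13). The other pairs of groups checked did not match for every number.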

Additional observations from a re-analysis of the deposited data

Results flagged for a closer look

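Of 28 sets of 4 libraries, 1 for each of the 7 genes in each group of 4, 1 held a library far from the other 3. Gp2 was at 2546 CPM in replicate 3 of control mTEClo, while the nearest other control library was at 1821 CPM, a gap that made up 0.872 of the range of the group. Chance flags about 1 in 20 such sets, and the library was kept in all tests unless it was left out by name.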

How the results depend on the processing

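All 7 genes were called higher in the entero-hepato gate under every alternative run, and 6 were called between control mTEChi and mTEClo under each. Of 1036 fold changes under alternatives, 969 kept direction and call, 14 lost a call, 34 gained one and 19 changed sign, none of them called on either side. Calls among the 7 genes moved as follows. Between double-mutant mTEChi and mTEClo the 6 calls became 7 by DESeq2, with RLE normalization and without the filter. They became 5 to 7 with a library left out. For double-mutant against control mTEClo the 1 call became 2 without the filter, in the 2-group fit and without the 3 mTEClo libraries numbered 1 of the control and single mutants (an alternative chosen after seeing the data), and 0 to 2 with a library left out. Against Hnf4a-removed the 1 call became 2 by DESeq2, without the filter and with the replicate block, and 0 to 1 with a library left out. In the 2-group fit and without the 3 libraries the count stayed at 1, but the gene called was Tnfrsf11b and not Tnfaip2. The 0 calls became 1 in Hnf4a-removed and 4 in Hnf4g-removed mTEClo without the filter, and 1 in the double mutant against Hnf4g-removed. Between the single mutants they became 1 by DESeq2 and 4 without the filter (0 to 1 with a library left out), and in mTEChi 1 by DESeq2 and without the filter (0 to 1). For the interaction they became 1 by DESeq2, 2 without the filter and 1 without the 3 libraries (0 to 1). The fit of both subsets holds only control mTEClo replicate 1 of the 3 libraries, so there this alternative repeats the fit without that library. Without the filter far more genes were called in mTEClo (967 instead of 139 for the double mutant, 212 instead of 1 and 482 instead of 18 for the single mutants); the cause was not tested. DESeq2 called 456, 7 and 136 in these 3, and 424 instead of 117 in mTEChi (619 without the filter). For the double mutant the 2-group fit called 295, the fit without 3 libraries 543 and the replicate block 204, and leaving out a library 47 to 207. Against Hnf4a-removed 55 became 271 by DESeq2, 733 without the filter, 104 with the block and 216 without the 3 libraries, and against Hnf4g-removed 2 became 161, 516, 7 and 255 (13 with RLE). Between the single mutants 12 became 91 by DESeq2 and 404 without the filter, and for the interaction 311 and 321.

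Changes of sign were all in small log2 fold changes. Without the 3 libraries Tnfaip2 in Hnf4a-removed mTEClo was at -0.084 and Aif1 in Hnf4g-removed at 0.069, and Aif1 there was at 0.13 with the replicate block. With a library left out, Marcksl1 ran from -0.009 to 0.16 and Gp2 from -0.16 to 0.062 in the double mutant; Gp2 from -0.028 to 0.26, Aif1 from -0.18 to 0.77 and Tnfrsf11b from -0.043 to 0.27 in Hnf4a-removed; and Aif1 from -0.25 to 0.28 in Hnf4g-removed mTEClo. Tnfrsf11b ran from -0.71 to 0.14 in the double mutant against Hnf4g-removed, Aif1 from -0.18 to 0.77 between the single mutants, Tnfaip2 from -0.24 to 0.055 in control mTEChi against mTEClo, and Sox8 from -0.31 to 0.15 in the interaction. Library numbers matched in full only between the single mutants and, at r of at most 0.075, between the wild-type gates. Depth limited Aif1 most, at 10 to 155 reads a library.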
